A study of Mus musculus with 74 samples.

Results

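The data described here are the nonmicroglia cells of mouse brains after 12 weeks on cuprizone or control diet. Whole brains were dissociated, live cells were sorted, and all cells that did not carry the myeloid surface protein Cd11b were pooled into 1 sample per animal. The comparison takes every nonmicroglia library of 12 weeks, 19 of the 74 libraries of the series, with the 3 Trem2 genotypes pooled and genotype kept as a covariate. The cuprizone group held 10 animals on chow with 0.2% cuprizone: 3 Trem2 -/-, 4 Trem2 +/- and 3 Trem2 +/+. The control group held 9 animals on control diet: 3 Trem2 -/-, 4 Trem2 +/- and 2 Trem2 +/+. The cuprizone group had 7 females and 3 males, and the control group 6 females and 3 males. Each library is 1 animal; the sources used here do not state the strain, the kind of Trem2 allele or the age. The series also holds 18 nonmicroglia libraries of 5 weeks and the microglia fraction of the same animals.

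Cuprizone, which binds copper, is fed to mice to kill oligodendrocytes, the cells that make myelin, and so to produce demyelination; longer feeding is used as a model of chronic demyelination. Cells under amino acid, mitochondrial or endoplasmic reticulum stress can slow translation through phosphorylation of the initiation factor eIF2, which favours translation of the transcription factor Atf4. Atf4 and its partners then raise transcription of a set of genes for amino acid supply, folate metabolism and cell death, called the integrated stress response.

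Expression was measured by 3' tag sequencing, which yields reads from the 3' end of polyadenylated RNA, and is given as CPM, each library's counts scaled to the same total. Library totals ran from 1516926 to 2336573 counts on cuprizone and from 1404516 to 2614787 on control diet. The fraction matched its label. Summed markers of mature oligodendrocytes were 23520 to 62620 CPM in the nonmicroglia libraries and 866 to 2447 CPM in the microglia libraries of the same animals, while microglia markers summed to 690 to 1812 and 58320 to 75940 CPM. Homeostatic astrocyte markers (18330 to 46220 CPM), endothelial markers (4750 to 9377 CPM) and neuronal markers (2043 to 4623 CPM) were also present. In the microglia libraries these lists summed to 10900 to 20890, 487 to 1095 and 72.2 to 312 CPM. Only the ranges of the astrocyte list overlapped between the fractions, so its sum is not specific to astrocytes. Gfap, the best known astrocyte marker, was nearly absent, with a mean of 8.96 CPM on cuprizone and 7.19 CPM on control diet. Trem2 itself, a microglial receptor, was at 2.71 to 9.54 CPM in the nonmicroglia cells of Trem2 -/- animals, 1.42 to 13.8 CPM in those of Trem2 +/- animals and 2.62 to 14.02 CPM in those of Trem2 +/+ animals, too low to check the genotype. In the microglia libraries of the same animals it was 111 to 240.0 CPM in Trem2 -/-, 308 to 950 CPM in Trem2 +/- and 729 to 989 CPM in Trem2 +/+ animals. There the Trem2 -/- animals lay below all others, while the ranges of Trem2 +/- and Trem2 +/+ animals overlapped. On the first principal component, which held 18.7% of the variance, cuprizone animal 9469 (Trem2 +/-) and control animal 1932 (Trem2 +/+) stood apart from the other 17 libraries.

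At 12 weeks, 60 of 11004 genes tested differed between the diets (0.545%; edgeR quasi-likelihood test with genotype and sex as covariates, Benjamini-Hochberg adjusted p under 0.05). Of these, 46 rose on cuprizone (0.418% of genes tested) and 14 fell (0.127%). The rises were larger than the falls: the median log2 fold change was 1.40 over the genes that rose and -0.93 over those that fell, beside 0.01 over all genes tested. For 18 of the 46 genes that rose, the lowest of the 10 cuprizone libraries lay above the highest of the 9 control libraries, and no other gene among the 11004 did so (0.164%). None of the 14 genes that fell separated the groups in this way. Without animals 9469 and 1932, 99 genes were called (67 higher and 32 lower), which included 56 of the 60.

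**Figure D1:**
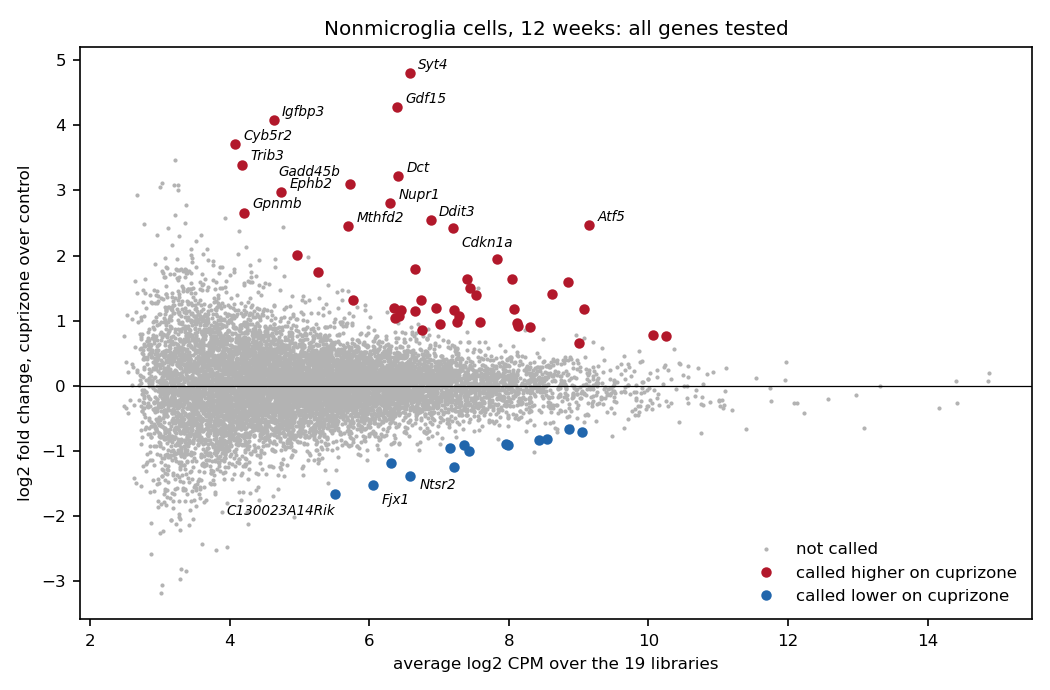
Each of the 11004 genes tested in nonmicroglia cells at 12 weeks is plotted by its average log2 CPM over the 19 libraries (x axis) and its log2 fold change, cuprizone over control (y axis). The 46 genes called higher (red) reach a log2 fold change of 4.80, for Syt4, and the 14 called lower (blue) reach -1.66, for C130023A14Rik.

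The largest change was that of Syt4, a synaptotagmin that sits on secretory vesicles and is best known from neurons. Its level ran from 93.9 to 274 CPM in the 10 cuprizone libraries, with a median of 171 CPM, against 2.52 to 13.7 CPM in the 9 control libraries, with a median of 5.43 CPM. The groups did not overlap, and the log2 fold change was 4.80 (SE 0.30; edgeR adjusted p = 2.75e-13). Syt4 was the only called gene among 25 tested members of the neuronal list, whose median log2 fold change was -0.07; summed neuronal markers ran from 2043 to 4623 CPM on cuprizone and from 2167 to 4359 CPM on control diet. In the microglia fraction of the same animals Syt4 averaged 2.98 CPM on cuprizone and 2.76 CPM on control diet, far below the nonmicroglia level on cuprizone.

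Dct, the dopachrome tautomerase of melanin synthesis, also rose. It ranged from 76.4 to 255 CPM on cuprizone, with a median of 135 CPM, and from 0 to 25.5 CPM on control diet, with a median of 14.9 CPM, again without overlap (log2 fold change 3.22, SE 0.44; edgeR adjusted p = 0.000135). Igfbp3, a secreted binding protein for insulin-like growth factors, was spread widely on cuprizone, from 3.30 to 107 CPM with a median of 30.9 CPM. In control libraries it ranged from 0 to 7.74 CPM with a median of 0, so the groups overlapped at their edges (log2 fold change 4.08, SE 0.79; edgeR adjusted p = 0.0074). Cyb5r2, a cytochrome b5 reductase, had 8.23 to 44.6 CPM on cuprizone and 0 to 13.02 CPM on control diet (log2 fold change 3.70, SE 0.82; edgeR adjusted p = 0.0192). The oppositely oriented Ppfibp2 overlaps the last 1 kb of its 3' end. Whether the counting used strand is not stated, so reads of the pair may not be separated. Ephb2, a receptor for ephrin-B ligands, had 15.4 to 81.5 CPM on cuprizone and 0 to 19.9 CPM on control diet (log2 fold change 2.98, SE 0.61; edgeR adjusted p = 0.00826). The control medians of these 3 low genes were 0, 0 and 4.97 CPM, and the fitted fold changes depend on the small count that edgeR adds.

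**Figure D2:**
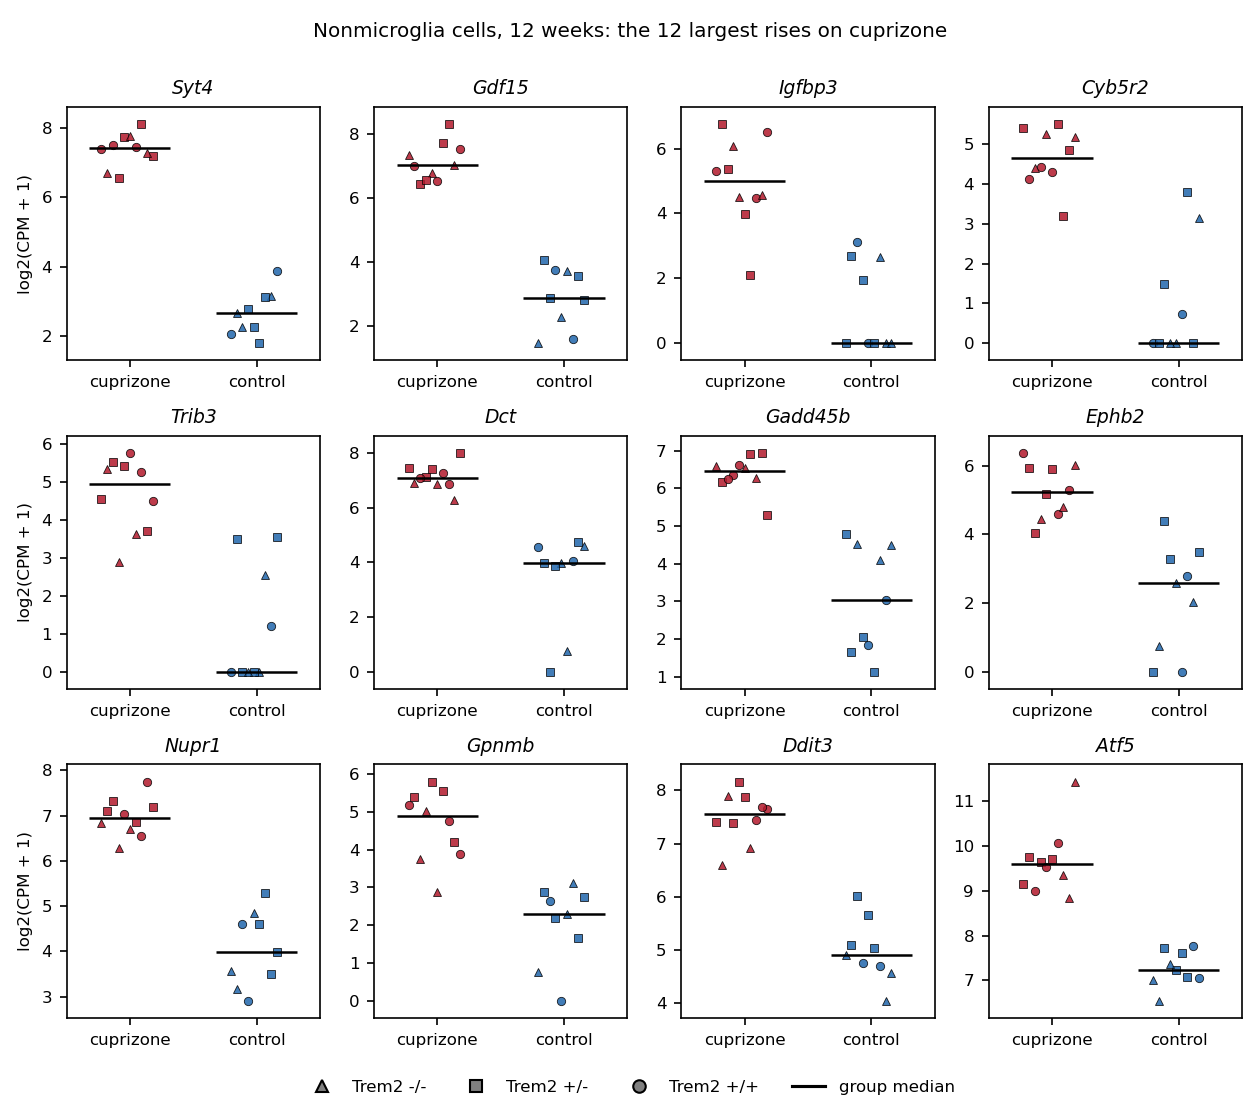
Each panel shows 1 of the 12 protein-coding genes with the largest rises, as log2(CPM + 1) in each library; cuprizone libraries (red, n = 10) stand left of control libraries (blue, n = 9), symbols give the genotype and the line is the group median. In Syt4, Gdf15, Dct, Gadd45b, Nupr1, Ddit3 and Atf5 no cuprizone library falls to the level of any control library.

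Genes of the integrated stress response formed the largest group among the rises. Of 31 tested members of a list of its transcription factors, amino acid genes and targets, 8 rose and none fell: Gdf15, Trib3, Nupr1, Ddit3, Atf5, Mthfd2, Cebpg and Atf4. This is 25.8% of the list, beside 0.418% of all genes tested, and the list's median log2 fold change was 0.82. The list was chosen with earlier results of these data known, so the share describes it and is not a test. Summed over the list, the level ran from 3872 to 5928 CPM on cuprizone and from 2255 to 3167 CPM on control diet, with no overlap between the diets. Without animals 9469 and 1932, 7 of the list's genes were called higher and the median was 0.55. A list of genes that mark dissociation stress and RNA quality had a higher median summed level on cuprizone (34130 CPM) than on control diet (30740 CPM). Its ranges, 30870 to 50000 CPM on cuprizone and 24600 to 39530 CPM on control diet, overlapped. None of its 13 members passed the test (median log2 fold change 0.18), and its part in the rises was not tested. The immediate early and heat shock list ran from 4283 to 6196 CPM on cuprizone and from 3559 to 6454 CPM on control diet, with none of 27 members called (median 0.14). With the mitochondrial share of counts as a covariate, 70 genes were called, which included all 60. With the noncoding share in its place, 68 genes were called, which included 56 of the 60.

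Of the stress list's transcription factors, Atf3 (log2 fold change 0.53, SE 0.32) and Cebpb (1.01, SE 0.80) did not pass the test. Among those called, Atf4 rose least. Its level was 320 to 544 CPM on cuprizone, with a median of 385 CPM, and 141 to 299 CPM on control diet, with a median of 205 CPM (log2 fold change 0.90, SE 0.17; edgeR adjusted p = 0.00333). Every cuprizone library stood above every control library. Atf5, a related factor that is also induced when mitochondrial proteins misfold, had a median of 767 CPM on cuprizone (457 to 2752 CPM) and 149 CPM on control diet (92.8 to 217 CPM). The highest value, 2752 CPM, came from cuprizone animal 9542 and the next was 1076 CPM; without that animal the log2 fold change was 2.12 in place of 2.46. Ddit3, which encodes the pro-apoptotic factor CHOP, ranged from 95.9 to 286 CPM on cuprizone and from 15.6 to 63.4 CPM on control diet (log2 fold change 2.55, SE 0.23; edgeR adjusted p = 3.64e-09). The oppositely oriented Mars overlaps the last 1 kb of its 3' end, and the sources used here do not say whether the counting used strand, so reads of the pair may not be separated. Cebpg, a dimer partner of Atf4, had 91.6 to 213 CPM on cuprizone and 43.4 to 114 CPM on control diet, which overlapped (log2 fold change 1.202, SE 0.21).

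Among the targets, Gdf15 rose most. This secreted stress cytokine had 85.1 to 315 CPM on cuprizone, with a median of 129 CPM, and 1.75 to 15.4 CPM on control diet, with a median of 6.30 CPM (log2 fold change 4.28, SE 0.35; edgeR adjusted p = 2.73e-10). Its gene lies at chr8:70629393-70632456 of GRCm38 (GENCODE M21) and overlaps no other annotated gene. Nupr1, a small nuclear protein of stressed cells, had 76.7 to 214 CPM on cuprizone and 6.54 to 38.5 CPM on control diet (log2 fold change 2.80, SE 0.30), and the diets did not overlap. Mthfd2, a mitochondrial enzyme of folate metabolism, had 49.6 to 141 CPM on cuprizone and 6.54 to 26.5 CPM on control diet (log2 fold change 2.45, SE 0.32), also without overlap. Trib3, a pseudokinase that feeds back on the pathway, was lower and more variable: 6.39 to 52.97 CPM on cuprizone and 0 to 10.7 CPM on control diet (log2 fold change 3.39, SE 0.82; edgeR adjusted p = 0.0422). Its call was kept in 5 of the 19 fits that left out 1 library.

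The other 23 members of the list, of which those named were chosen after their values were seen, did not pass the test, although 19 of them had a log2 fold change above 0. Chac1, an enzyme that degrades glutathione, had a log2 fold change of 3.09 (SE 1.25) at a mean of 12.9 CPM on cuprizone and 2.41 CPM on control diet. Control medians of Chac1, Eif4ebp1 and the called Trib3 were 0, 1.29 and 0 CPM. These genes passed the filter on counts mostly through cuprizone libraries. The filter thus favoured a positive sign for them, and they enter the list's counts and median. The amino acid synthesis genes Psat1 (-0.17, SE 0.18), Phgdh (0.26, SE 0.74) and Psph (0.44, SE 0.29) had small log2 fold changes. The transporters Slc7a11 (0.31, SE 0.22), Slc7a5 (0.23, SE 0.20) and Slc3a2 (0.05, SE 0.21) did so too. Tars, the threonyl-tRNA synthetase, was not on the list and rose, with 75.9 to 159 CPM on cuprizone and 21.96 to 71.9 CPM on control diet (log2 fold change 1.07, SE 0.25; edgeR adjusted p = 0.0269). The synthetases on the list, Gars (0.99, SE 0.30), Sars (0.68, SE 0.21), Cars (1.503, SE 0.75) and Wars (-0.03, SE 0.52), did not pass the test. Of 18 tested members of the unfolded protein list, the chaperones and folding enzymes of the endoplasmic reticulum, none passed the test and the median log2 fold change was -0.11; Hspa5, its main chaperone, had 894 CPM on cuprizone and 1087 CPM on control diet (log2 fold change -0.31, SE 0.17).

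Because the genes of the stress response rose together, their promoters were searched for TGATGNAA, the core of the element that Atf4 binds with C/EBP partners, on both strands of the 250 bases before each RefSeq start. It was present before at least 1 start in 5 of the 39 genes that rose and have an entry in the promoter table (12.8%), in 0 of the 9 that fell, and in 197 of the 8463 tested genes with an entry (2.33%). Over all 27025 genes in the table it was present in 3.91%. Of the 8 stress list genes that rose, Nupr1 held it, and of the 17 tested list genes that did not pass and have an entry, 5 held it (29.4%). To show what was matched, a stretch before 1 start of each of the 5 genes is printed as RefSeq sequence of GRCm38.p6, read along the gene's own strand, with the match in capitals; TTNCATCA is the same motif on the other strand.
Nupr1 (chr7:126625543-126625610): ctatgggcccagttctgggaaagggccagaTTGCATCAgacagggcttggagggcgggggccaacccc
Tars (chr15:11399659-11399703): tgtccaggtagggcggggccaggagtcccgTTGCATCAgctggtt
Creb5 (chr6:53287245-53287302): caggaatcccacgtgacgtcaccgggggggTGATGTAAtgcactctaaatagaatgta
Gjc3 (chr5:137963165-137963232): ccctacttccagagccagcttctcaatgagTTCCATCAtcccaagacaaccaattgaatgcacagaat
Arl14ep (chr2:106973123-106973190): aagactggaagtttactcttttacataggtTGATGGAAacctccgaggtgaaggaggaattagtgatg
Nupr1 and Tars carry the same letters, TTGCATCA, 110 and 15 bases before their starts, and Creb5 holds the motif before 2 of its starts. The motif was chosen with the results known, and a match describes the letters of these windows only.

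The other list with several rises was that of p53 targets and apoptosis genes. Of its 18 tested members 4 rose (22.2%, beside 0.418% of all genes tested), none fell, and the median log2 fold change was 0.55. This list too was chosen with earlier results of these data known, so its share is not a test. Cdkn1a, the cell cycle inhibitor p21, had 63.9 to 427 CPM on cuprizone, with a median of 225 CPM, and 21.03 to 76.1 CPM on control diet, with a median of 35.5 CPM (log2 fold change 2.42, SE 0.26; edgeR adjusted p = 2.29e-07). The ranges overlapped. Gadd45b, a stress-induced growth arrest gene, had 38.2 to 121 CPM on cuprizone and 1.19 to 26.3 CPM on control diet, without overlap (log2 fold change 3.09, SE 0.44). Bbc3, the pro-apoptotic protein PUMA, had 69.2 to 288 CPM on cuprizone and 10.5 to 79.4 CPM on control diet (log2 fold change 1.79, SE 0.33). Phlda3, an inhibitor of Akt, had 109 to 314 CPM on cuprizone and 38.7 to 132 CPM on control diet (log2 fold change 0.98, SE 0.22; edgeR adjusted p = 0.0247). The best known targets Mdm2 (log2 fold change 0.49, SE 0.20) and Bax (0.37, SE 0.20) did not pass the test.

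**Figure D3:**
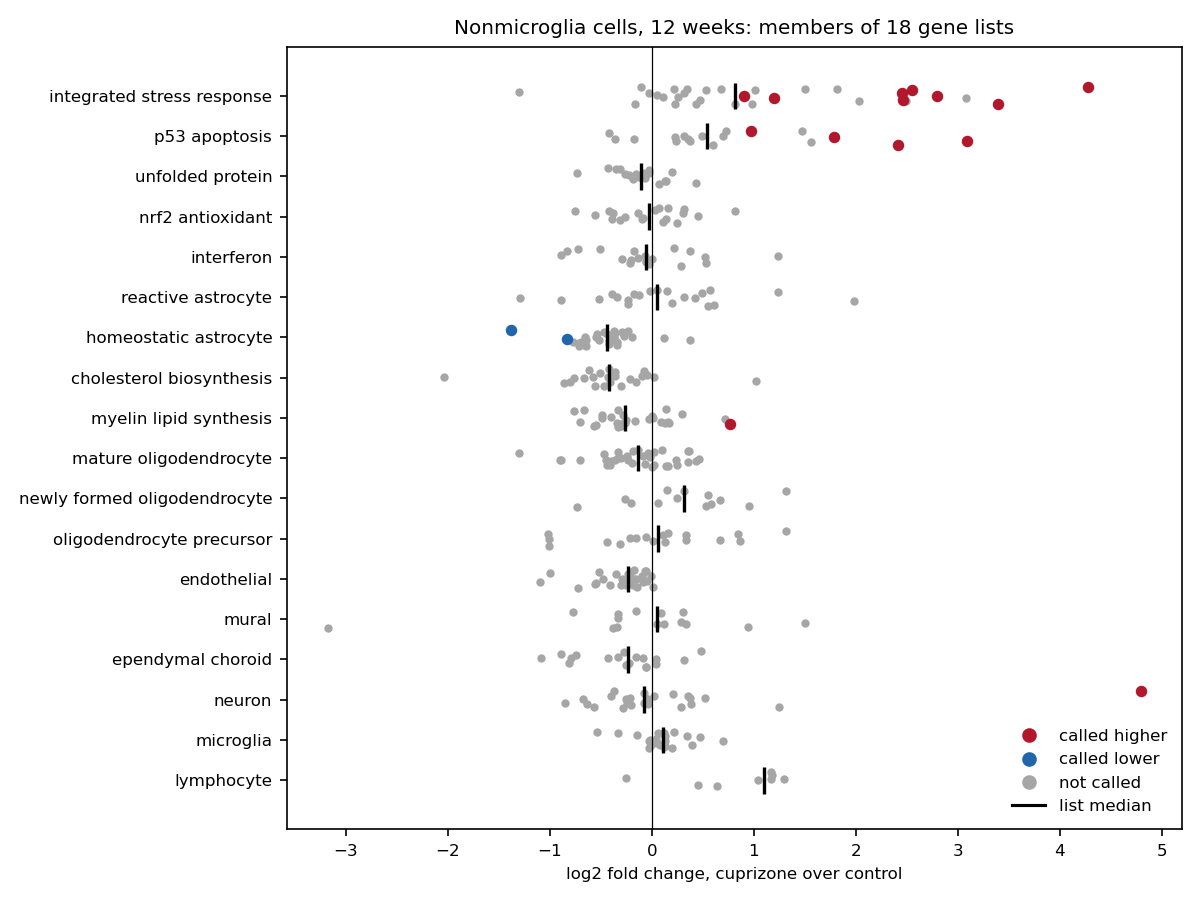
Each point is a tested member of 1 of 18 gene lists, placed by its log2 fold change at 12 weeks, cuprizone over control (x axis); red and blue points were called higher and lower, grey points were not called, and black bars are list medians. Red points gather in the integrated stress response and p53 lists, whereas the homeostatic astrocyte list lies mostly left of 0, with a median of -0.44.

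Further genes rose that belong to none of the lists; those described in this paragraph were chosen after their values were seen. Of the 46 genes that rose, 29 were on no list. Grb14, an adaptor of the insulin receptor, had 399 to 1253 CPM on cuprizone and 114 to 278 CPM on control diet (log2 fold change 1.596, SE 0.18). Arap2, a regulator of small GTPases, had 399.7 to 722 CPM on cuprizone and 106 to 322 CPM on control diet (log2 fold change 1.41, SE 0.18), and Arhgef2, an exchange factor bound to microtubules, had 182 to 365 CPM on cuprizone and 81.9 to 123 CPM on control diet (1.40, SE 0.17). All 3 separated the diets without overlap. Phlda1, another stress-induced gene, did so as well, with 204 to 518 CPM on cuprizone and 55.6 to 132 CPM on control diet (log2 fold change 1.94, SE 0.19). Among noncoding genes, 3 that host small nucleolar RNAs rose, Gas5 (log2 fold change 0.78, SE 0.16), Snhg1 (1.17, SE 0.23) and 2410006H16Rik (1.63, SE 0.21); these genes overlap the small RNAs they host, so their counts can include both.

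Gpnmb, a transmembrane glycoprotein of lysosome-rich phagocytes and pigment cells, also rose, and it is highly expressed in microglia of cuprizone-fed mice. In nonmicroglia cells it had 6.39 to 54.7 CPM on cuprizone and 0 to 7.65 CPM on control diet (log2 fold change 2.66, SE 0.60; edgeR adjusted p = 0.0236). In the microglia fraction it averaged 443 CPM on cuprizone and 6.41 CPM on control diet. Summed microglia markers in nonmicroglia cells were 1.74% of their level in the microglia fraction on cuprizone and 1.52% on control diet. If all microglial genes were carried over at that share, microglial Gpnmb would give 7.71 CPM on cuprizone, against the 28.5 CPM measured, and 0.10 CPM on control diet, against 3.92 CPM. None of 25 tested microglia markers passed the test (median log2 fold change 0.11), and Gpnmb was the only one of 24 tested genes of the disease-associated microglia list that did. For Syt4, Gdf15, Dct, Ddit3, Atf5, Cdkn1a and Gadd45b the same share of the microglial level gave at most 2.47 CPM on cuprizone. The share is an average over markers, and the part of carried-over microglial RNA in these rises was not tested.

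Genes of resting astrocytes tended to be lower on cuprizone, though few passed the test gene by gene. Of 31 tested members of the homeostatic astrocyte list, 29 had a log2 fold change below 0, with a median of -0.44 beside 0.01 over all genes; 2 fell (6.45%, beside 0.127% of all genes tested) and none rose. As with the other lists, its members were chosen with earlier results of these data known. Summed over the list, the level ran from 18330 to 29200 CPM on cuprizone and from 24910 to 46220 CPM on control diet, and the ranges overlapped. In pooled cells, fewer cells of a type and less RNA per cell cannot be told apart. Without animals 9469 and 1932, 8 members were lower by the same test and the median was -0.49. The lean below 0 was not particular to astrocyte genes. Of tested endothelial genes 29 of 30 were not above 0, as were 8 of 9 perivascular fibroblast and 15 of 19 ependymal and choroid plexus genes. Further lists leaned the same way, with 22 of 24 cholesterol biosynthesis, 13 of 18 unfolded protein and 23 of 35 mature oligodendrocyte genes not above 0. Some lists did not lean so, with 7 of 15 pericyte and smooth muscle genes and 8 of 25 microglia markers not above 0.

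Ntsr2, a neurotensin receptor of astrocytes, had the larger fall of the 2 called members. It ranged from 17.3 to 101 CPM on cuprizone, with a median of 51.1 CPM, and from 69.5 to 195 CPM on control diet, with a median of 148 CPM (log2 fold change -1.38, SE 0.28; edgeR adjusted p = 0.0074). Clu, the secreted chaperone clusterin, had 175 to 383 CPM on cuprizone and 342 to 518 CPM on control diet (log2 fold change -0.83, SE 0.17; edgeR adjusted p = 0.0104). The glutamate transporters Slc1a2 (log2 fold change -0.72, SE 0.18; edgeR adjusted p = 0.0515) and Slc1a3 (-0.65, SE 0.20; adjusted p = 0.201) did not pass. Sox9, the transcription factor of astrocytes, was close to the threshold as well (-0.64, SE 0.16; edgeR adjusted p = 0.0516). Mlc1, Aldoc and Gja1 had log2 fold changes of -0.52 (SE 0.22), -0.44 (SE 0.18) and -0.42 (SE 0.24). Of 21 tested genes of the reactive astrocyte list none passed the test. Serpina3n, a protease inhibitor, came closest, with a mean of 49.2 ± 26.8 CPM on cuprizone (SD, n = 10) and 14.8 ± 16.5 CPM on control diet (SD, n = 9). Its log2 fold change was 1.98 (SE 0.53, edgeR adjusted p = 0.0974). By genotype it was 3.31 (SE 0.79) in Trem2 -/-, 2.55 (SE 0.67) in Trem2 +/- and -0.60 (SE 0.80) in Trem2 +/+ animals.

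Of the 14 genes that fell, 12 were on no list, so the lists do not place them in a cell type. Fzd2, a Wnt receptor, had 22.6 to 91.6 CPM on cuprizone and 57.6 to 159 CPM on control diet (log2 fold change -1.19, SE 0.26; edgeR adjusted p = 0.0183). Fjx1, a secreted protein related to fly four-jointed, had 1.32 to 59.1 CPM on cuprizone and 37.3 to 149 CPM on control diet (log2 fold change -1.52, SE 0.34). Paqr7, a membrane progestin receptor, had 61.2 to 216 CPM on cuprizone and 154 to 326 CPM on control diet (log2 fold change -1.004, SE 0.22). Cldn10, a tight junction protein, had 74.2 to 205 CPM on cuprizone and 140.0 to 275 CPM on control diet (log2 fold change -0.90, SE 0.19). Chst1 (-0.95, SE 0.23), Ttyh3 (-0.91, SE 0.18), Cmtm5 (-0.89, SE 0.19), Mfge8 (-0.81, SE 0.19), Dclk1 (-0.70, SE 0.17) and Ntrk2, the receptor of brain-derived neurotrophic factor (-0.66, SE 0.16), also fell. In each of these genes the ranges of the diets overlapped. Of 11 of the largest falls, 4 kept their call in all 19 fits that left out 1 library (Ntsr2, Cldn10, Cmtm5 and Clu), and of the 12 largest rises 9 did.

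**Figure D4:**
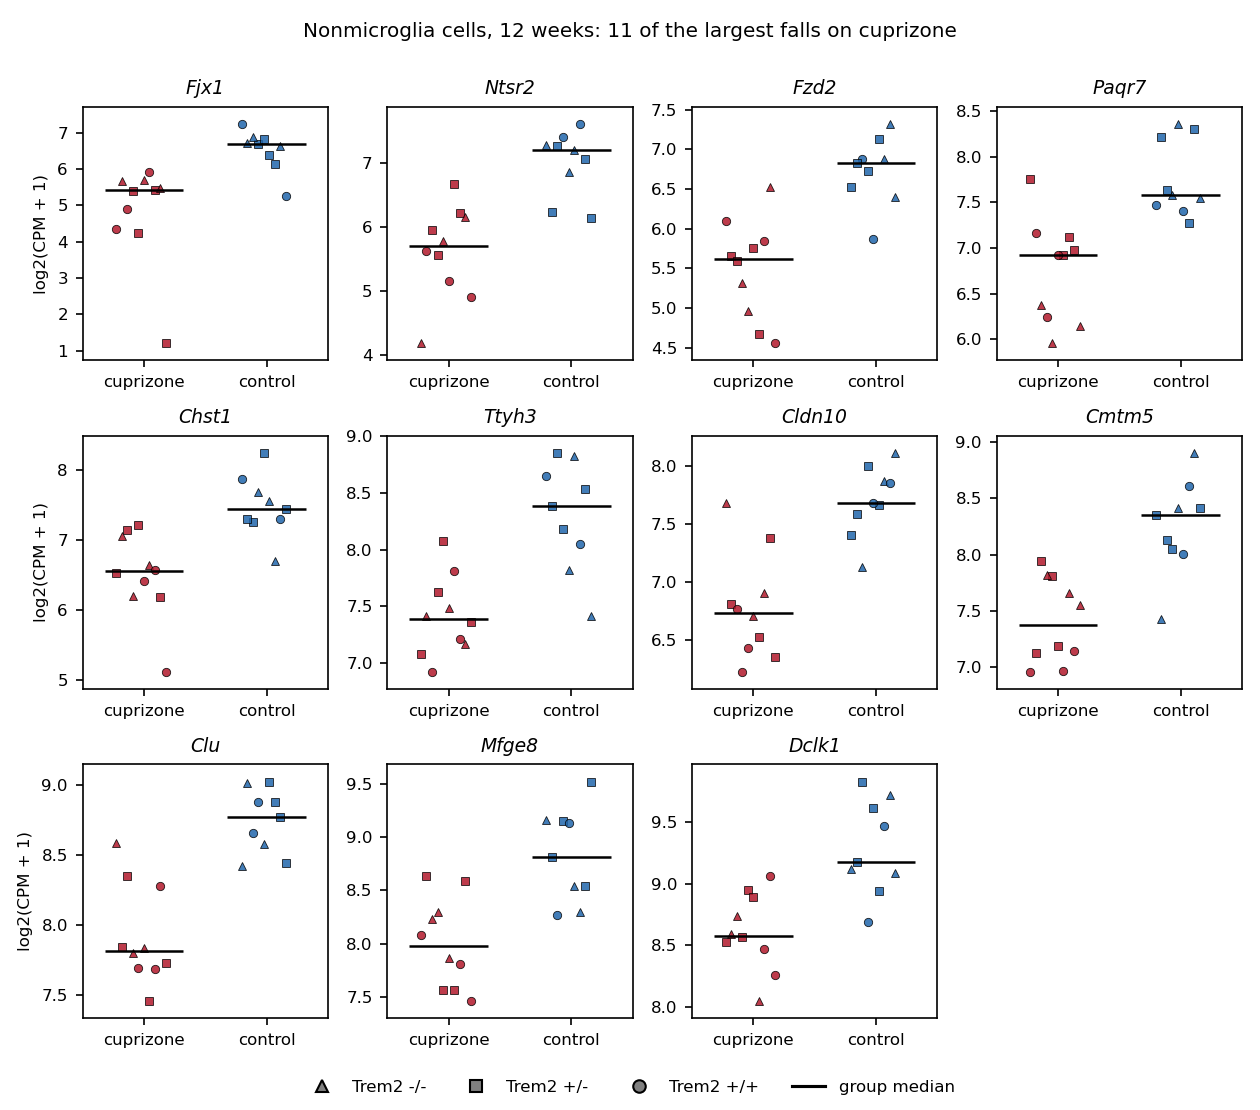
Each panel shows 1 of 11 protein-coding genes with large falls, as log2(CPM + 1) in each library; cuprizone libraries (red, n = 10) stand left of control libraries (blue, n = 9), symbols give the genotype and the line is the group median. The cuprizone median is below the control median in every panel, and the 2 groups overlap in each.

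No difference in the listed myelin genes was detected in these libraries. None of 35 tested markers of mature oligodendrocytes passed the test, the median log2 fold change was -0.13, and the summed level ran from 23520 to 45440 CPM on cuprizone and from 27380 to 62620 CPM on control diet. Mag, Mog, Mobp and Cnp had log2 fold changes of -0.18 (SE 0.25), -0.24 (SE 0.26), -0.44 (SE 0.23) and -0.04 (SE 0.29). Mal, a lipid raft protein of myelin, had -0.45 (SE 0.19), and Ppp1r14a had the smallest p of the list (log2 fold change -0.90, SE 0.32; edgeR adjusted p = 0.398). The highest myelin level belonged to control animal 1932, one of the libraries that stood apart; without it and animal 9469 the list's median was 0.09.

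Gjc3, a gap junction gene of oligodendrocytes, was chosen after its values were seen; it rose to 479 to 1029 CPM on cuprizone, against 163 to 391 CPM on control diet (log2 fold change 1.19, SE 0.17; edgeR adjusted p = 4.1e-05), with no overlap. Pex5l, on the list of myelin lipid genes, rose too (log2 fold change 0.76, SE 0.19; edgeR adjusted p = 0.0463), with 1143 to 2101 CPM on cuprizone and 471 to 1764 CPM on control diet; it was the only one of 29 tested members called. Its call was kept in 2 of the 19 fits that left out 1 library.

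Markers of younger oligodendrocyte stages did not pass the test. Of 13 tested genes of newly formed oligodendrocytes, 10 had a log2 fold change above 0, with a median of 0.31. Gpr17, a receptor of premyelinating cells, came closest, with 21.9 to 139 CPM on cuprizone and 11.9 to 50.9 CPM on control diet (log2 fold change 1.31, SE 0.37; edgeR adjusted p = 0.136). Bcas1 (0.54, SE 0.26) and Enpp6 (-0.74, SE 0.37) of the same list had log2 fold changes of opposite sign. Of 18 tested precursor genes, 10 had a log2 fold change above 0 and 8 did not, with a median of 0.06. The proteoglycan Cspg5 missed the threshold narrowly (log2 fold change -1.01, SE 0.25, edgeR adjusted p = 0.0501). Olig1 (0.67, SE 0.18, edgeR adjusted p = 0.0919) and Olig2 (0.86, SE 0.41) leaned the other way. Pdgfra, a defining precursor marker, was low, with a mean of 11.01 CPM on cuprizone and 20.6 CPM on control diet. Without both libraries that stood apart, 2 precursor genes were called higher and 1 lower.

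No member of the endothelial list (30 tested, median log2 fold change -0.23) or of the pericyte and smooth muscle list (15 tested, 0.05) passed the test, and the same held for the ependymal and choroid plexus list (19 tested, -0.23). The cholesterol biosynthesis list had a median of -0.42, and 22 of 24 members were below 0, but none passed; Srebf2, the transcription factor of the pathway, had a mean of 323 CPM on cuprizone and 465 CPM on control diet (log2 fold change -0.56, SE 0.15; edgeR adjusted p = 0.0839). Lymphocyte genes were low, and 7 of 8 tested were above 0 with a median of 1.10. None passed, and the list's sum ran from 115 to 427 CPM on cuprizone and from 91.3 to 290 CPM on control diet. Only these 8 of 24 listed genes passed the filter on counts. For genes that pass mostly through cuprizone libraries the filter favours a positive sign. Nkg7, for example, had a median of 6.715 CPM on cuprizone and 1.94 CPM on control diet. None of the 20 tested interferon-induced genes passed (median -0.06). Adamts1, a secreted protease, was the only one of 27 tested matrix genes called (log2 fold change 1.5, SE 0.23), and it was higher. In all, 30 of the 39 lists held no called gene.

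Whether the diet effect differed between genotypes was tested in the same libraries with 6 group means. No gene was called for Trem2 -/- against Trem2 +/+ (0% of 11004; 378 genes at an unadjusted p under 0.05 by edgeR) or for Trem2 +/- against Trem2 +/+ (0%; 698 genes). DESeq2 called 0 and 45 genes, and limma called 0 and 0. With 2 Trem2 +/+ control animals, of which 1932 stood apart, this comparison is coarse: without animal 9145, which leaves 1932 as the only Trem2 +/+ control, 30 and 157 genes were called. The smallest p belonged to Gpbp1l1 for the first difference and to Papss1 for the second. The main rises were seen in each genotype. For Syt4 the log2 fold change was 4.65 in Trem2 -/-, 5.15 in Trem2 +/- and 4.45 in Trem2 +/+ animals; for Gdf15 it was 4.56, 4.12 and 4.19, and for Ddit3 2.67, 2.29 and 2.83, in the same order. Ntsr2 had -1.64, -0.58 and -2.37. Sign agreement across genotypes is partly fixed by the pooled call, which used the same animals.

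The 5-week animals were different mice, and their values did not enter the 12-week test. At 5 weeks 82 of 13057 genes were called (0.628%), 52 higher (0.398%) and 30 lower (0.23%), in a fit over all 37 nonmicroglia libraries. Of the 46 genes that rose at 12 weeks, all 46 had a log2 fold change above 0 at 5 weeks and 30 were called there; of the 14 that fell, all 14 were below 0 and 6 were called. Over all 11004 genes, 58.8% had the same sign at both times. In the fit over both times, 95 genes were called at 12 weeks, and 43 genes were called at both times in the same direction, which is 45.3% of the calls at 12 weeks and 52.4% of those at 5 weeks.

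**Figure D5:**
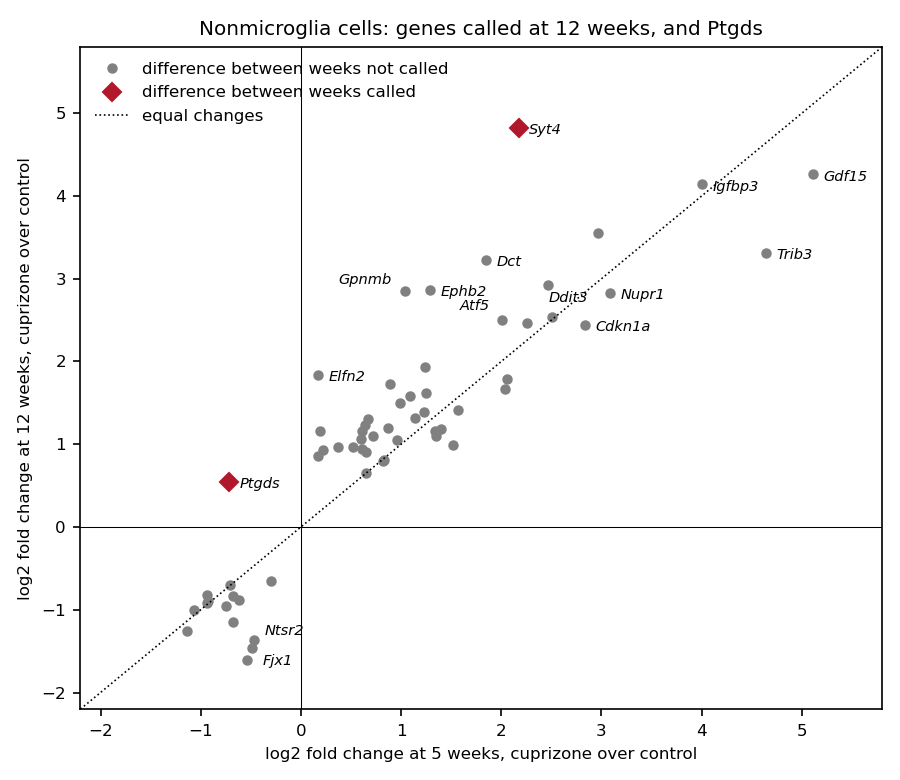
Genes called at 12 weeks, and Ptgds, are placed by their log2 fold change at 5 weeks (x axis) and at 12 weeks (y axis), cuprizone over control, both from the fit over 37 libraries. Syt4 and Ptgds, whose effect differed between the times, are red diamonds; the stress response genes Gdf15, Trib3, Ddit3 and Atf5 lie on either side of the dotted line of equal change.

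The difference in the diet effect between 12 and 5 weeks was called for 2 of 13057 genes (0.0153%), both with a higher effect at 12 weeks (0.0153%) and none with a lower one (0%). Syt4 averaged 100.1 ± 26.1 CPM on cuprizone and 21.4 ± 10.3 CPM on control diet at 5 weeks (SD, n = 9 each), and 172 ± 53.9 CPM on cuprizone (n = 10) and 6.02 ± 3.47 CPM on control diet (n = 9) at 12 weeks. Its diet effect was thus 2.65 larger on the log2 scale at 12 weeks (SE 0.39; edgeR adjusted p = 5.71e-05), with both a higher cuprizone and a lower control level. Ptgds, the prostaglandin D2 synthase of oligodendrocytes and meninges, averaged 344 ± 109 CPM on cuprizone and 557 ± 193 CPM on control diet at 5 weeks, and 1077 ± 226 CPM on cuprizone and 727 ± 235 CPM on control diet at 12 weeks. In the fit over both times its log2 fold change was -0.72 at 5 weeks (edgeR adjusted p = 0.0322) and 0.54 at 12 weeks (adjusted p = 0.184), a difference of 1.26 (SE 0.25; adjusted p = 0.0292). Of the 19 fits that left out one 12-week library, 7 called both genes and 12 called 1. Dct had a log2 fold change of 1.85 at 5 weeks (means of 28.4 CPM on cuprizone and 8.65 CPM on control diet) and Gpnmb of 1.04 (12.5 and 5.92 CPM); for neither was the difference between the times called.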

How the data were processed

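Counts per gene were deposited by the authors as 1 table for all libraries, with no normalization; per the labels' protocols the libraries were made with the QuantSeq 3' forward kit from sorted cells. Per the submitters' processing notes FastQC 0.11.5, STAR, MultiQC and R 3.4.3 were used with GRCm38.p6; the sources used here name no read counter or annotation and do not say whether strand or molecular identifiers were used. No pair of the 19 libraries agreed within sampling noise (lowest chi-square per degree of freedom 12.9 over 171 pairs).

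Genes were kept by filterByExpr (minimum count 10, grouped by diet), scaled by TMM and tested with the robust quasi-likelihood test of edgeR 4.0.16 (R 4.3.3), two-sided, with Benjamini-Hochberg adjustment over all genes tested and a threshold of 0.05. Terms were diet, genotype and sex; genotype interactions used 6 group means, and the week interaction the 37 nonmicroglia libraries. CPM in the text are scaled by total counts, without TMM. Alternatives used DESeq2 1.42.0, limma 3.58.1, other filters and terms, and libraries left out. The edgeR test was checked on simulated counts. The members and the 39 gene lists were chosen with earlier results of these data known. Named genes are a panel of markers, the 12 largest rises and falls among called coding genes with an average log2 CPM of at least 3, up to 4 called members per list (with none called, the one of smallest p), and the genes leading each interaction; other members of a list are named to describe it. Some genes that the rule names are not reported here. Gene positions are from GENCODE M21 and promoter sequences from RefSeq, GRCm38.p6. Animals are the replicates; with totals of 1404516 to 2614787 counts, counting error limits genes of a few CPM. An RNA integrity number was given for 5 of the 19 libraries and was not used.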

Additional observations from a re-analysis of the deposited data

Results flagged for a closer look

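In 6 of 62 groups checked, 1 library lay far from the others of its diet by Dixon's test, where chance flags about 1 in 20. Control animal 1932 was highest for Syt4 (13.7 CPM, next 7.88) and for Pex5l (1764 CPM, next 1122). Control animal 9463 was highest for Ephb2 (19.9 CPM, next 10.1). Cuprizone animal 9469 was highest for Paqr7 (216 CPM, next 143), cuprizone animal 1040 for Gdf15 (315 CPM, next 208) and cuprizone animal 9542 for Atf5 (2752 CPM, next 1076). Without the animal concerned, the log2 fold change was 5.03 for Syt4, 0.99 for Pex5l, 3.34 for Ephb2, -1.14 for Paqr7, 4.14 for Gdf15 and 2.12 for Atf5, and each gene was still called by edgeR. Over all 19 fits that left out 1 library, however, Pex5l was called in 2.

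The diet effect differed between 12 and 5 weeks, by the test of that difference, for Syt4 (2.65 on the log2 scale) and for Ptgds (1.26).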

How the results depend on the processing

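For the 60 genes called at 12 weeks, DESeq2 called 146, limma 91, the test without a filter 91, and the test without animals 9469 and 1932, chosen after seeing the data, 99; without Trem2 +/- animals it called 19 and without Trem2 -/- animals 25. Leaving out 1 library gave 41 to 88 calls, and the other settings gave 44 to 86. For Trem2 +/- against Trem2 +/+, DESeq2 called 45 genes and the unfiltered test 27; leaving out 1 library gave 0 to 157 calls, and 0 to 30 for Trem2 -/- against Trem2 +/+. For 12 against 5 weeks, DESeq2 called 5 genes, limma 1 and the unfiltered test 4; leaving out 1 library gave 1 to 2. Fewer animals enter the fits that leave out a genotype; otherwise the cause was not tested. Of the 60 calls, 33 were kept in each of the 19 fits that left out 1 library (29 higher and 4 lower), and 16 in every setting run. No named gene that was called changed sign in any setting. No paired analysis was possible because cuprizone and control animals are different mice that share no replicate number. Genes of a few CPM are limited by depth.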
